A study of Mus musculus with 12 samples.

Results

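The 9 genes described here mark the biliary epithelium and its response to liver injury. They are the keratin genes *Krt7*, *Krt19*, and *Krt23*, the surface protein genes *Epcam*, *Muc1*, and *Prom1*, the transcription factor gene *Sox9*, the secreted phosphoprotein gene *Spp1*, and the chloride channel gene *Cftr*. They were chosen by symbol, with earlier results of these data known, and all 9 were found among the 40551 genes with deposited counts. The filter on low counts kept 8 of them, because *Cftr* had only 3 to 25 counts per library.

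The counts come from total RNA sequencing of whole liver from 12 mice in 4 genotypes of 3 livers each. WT livers are the wild-type controls. Mcl1 KO livers (*Mcl1*Δhep) lack the antiapoptotic gene *Mcl1* in cells that express a Cre recombinase from the albumin promoter, that is, mainly hepatocytes, so that bile duct cells of an adult liver are not the intended target. The label Sting1 KO stands for a deletion of *Sting1*, the adaptor of the cytosolic DNA sensor cGAS, in all cells, and Mcl1 Sting1 DKO combines both deletions. The study used both sexes. It gives 2 and 12 months for its WT mice, its Mcl1 KO mice, and those with both deletions, 2 months for its comparison of WT and *Mcl1*Δhep transcriptomes, and no age in its methods for Sting1 KO mice. The labels give neither the age nor the sex of a mouse. Nothing in the labels ties a library to a litter or a day.

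Bile ducts are lined by cholangiocytes, an epithelium that modifies bile and is built on keratins that hepatocytes lack. In chronic injury, small ducts and progenitor-like cells multiply around the portal tracts, which is called a ductular reaction. *Sox9* and Notch signals specify biliary cells in the embryo, and hepatocytes under stress can switch on some biliary genes without becoming duct cells. In whole-liver RNA, more cells of a type cannot be told apart from more RNA per cell.

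Totals ranged from 28826367 to 45266387 counts per library. Hepatocyte markers, albumin among them, took 9.37 to 14.1% of the counts in the libraries, as liver tissue should. *Mcl1* was at 90.2 to 104 CPM, that is, counts brought to one library size with edgeR's TMM factors, in WT livers and at 25.0 to 34.0 CPM in Mcl1 KO livers, a log2 fold change of −1.77 (SE 0.16, adjusted p = 0.000605, edgeR quasi-likelihood test). In the libraries labelled Mcl1 Sting1 DKO it was at 18.1 to 26.0 CPM. *Sting1* was at 2.11 to 2.53 CPM in WT livers and at 1.16 to 2.70 CPM in the libraries labelled Sting1 KO, so these groups overlapped. It was at 3.67 to 5.997 CPM in Mcl1 KO livers and at 1.90 to 2.53 CPM in the libraries labelled Mcl1 Sting1 DKO, which lay below all Mcl1 KO livers (log2 fold change −1.05, SE 0.29, adjusted p = 0.134, and adjusted p = 0.022 with DESeq2) and overlapped the WT livers. Counts over the whole gene thus did not separate either label from WT, and these 6 libraries are called by their labels. Y-linked genes were expressed, with at least 100 counts in all, in WT replicates 2 and 3 and in the library labelled Mcl1 Sting1 DKO replicate 1, and in no other library.

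One library stands apart by its counts on genes of other tissues. Mcl1 KO replicate 3 held 272975 counts on 6 pancreatic acinar genes (*Cela1*, *Cela2a*, *Cpa1*, *Prss2*, *Ctrb1*, and *Pnlip*), which encode digestive enzymes that hepatocytes do not make. This was 0.913% of its counts and a summed level of 8632 CPM, against 7.26 to 32.5 CPM in the other 11 libraries. Its 6 skeletal muscle genes summed to 1172 CPM, against 0.378 to 6.58 CPM in the other 11. Pancreatic ducts, which run through acinar tissue, also express keratins, *Epcam*, *Sox9*, *Cftr*, and mucins. Mcl1 KO replicate 3 was the highest of the 12 libraries for 4 of the 9 genes, *Krt7*, *Epcam*, *Spp1*, and *Muc1*. Its *Sox9* level, at 1.74 CPM, lay within the WT range, and its *Cftr* level lay below all WT livers. The share of all genes that were highest in this library was not counted. *Tff2*, a trefoil factor gene of stomach and pancreas, stood at 1067 counts in this library and at 0 to 21 in the others. It belongs to a list of 7 genes of intestinal and gallbladder mucosa. That list summed to 77.5 CPM in this library and to 38.5 to 79.8 CPM in the other 11. The intestinal factor genes *Cdx1* and *Cdx2*, also on the list, had 0 counts in all 12. The part of RNA from outside the liver in the biliary genes' values was not tested, and for the comparisons that use Mcl1 KO livers, values without this library are given below.

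**Figure D1:**
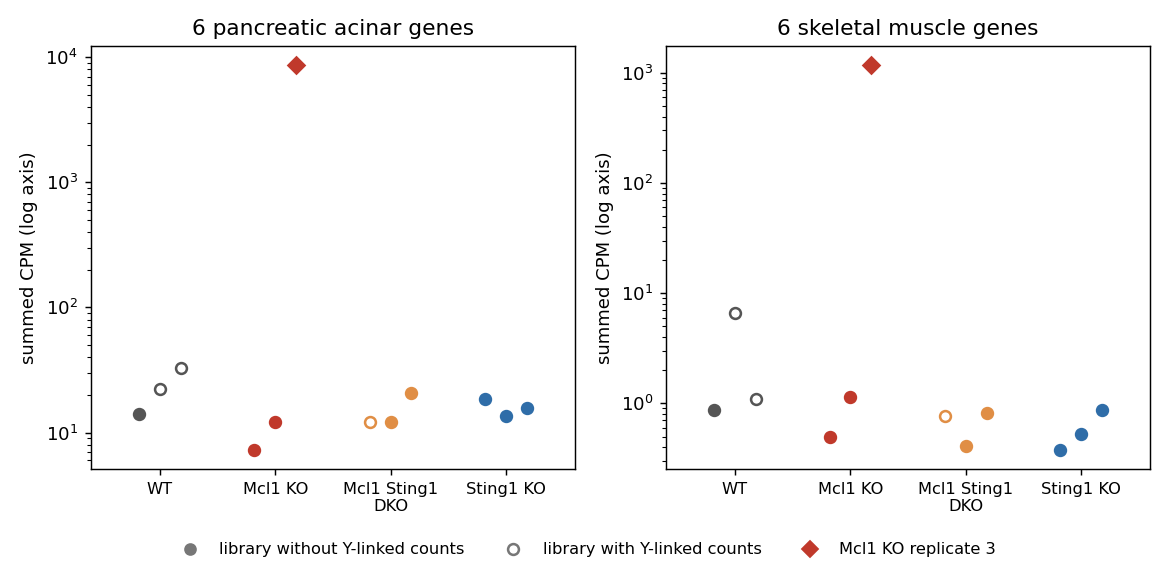
Summed level (CPM, log axis) of 6 pancreatic acinar genes (left) and 6 skeletal muscle genes (right) in each of the 12 libraries, grouped by genotype. Mcl1 KO replicate 3 (diamond) is at 8632 and 1172 CPM, and the other 11 libraries lie between 7.26 and 32.5 CPM and between 0.378 and 6.58 CPM.

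Short stretches of 2 promoters, those of *Muc1* and *Spp1*, are shown. Of the genes whose promoters could be searched, only these 2 held any of the letters described below. The RefSeq promoter windows on GRCm38.p6, from 250 bases before to 50 after an annotated start, covered 7 of the 9 genes. Both strands were searched for letters from the cores of known motifs, among them GGAATG for TEAD factors, ACAAAG for SOX factors, GTGGGAA for RBPJ, and TATAAA for the TATA box. Capitals mark the match, and a reverse-strand match appears as its complement. Each stretch lies on the forward strand of its gene.
Muc1, TEAD letters, chr3:89228916-89228937: cctacacaGGAATGactggggg
Muc1, TATA letters, chr3:89229017-89229038: gggactggTATAAAgcagcagg
Spp1, SOX letters on the reverse strand, chr5:104434935-104434956: cagtaatgCTTTGTgtgtgttt
The *Muc1* TATA letters stand at position −31 from the start, where such a box usually lies, whereas those of *Spp1* stand at −211. Among all 32851 promoter windows, the TEAD letters occurred in 14.7%, the SOX letters in 18.7%, the RBPJ letters in 6.38%, and the TATA letters in 13.6%. The 7 genes had 9 windows, with 2 each for *Spp1* and *Prom1*. The TEAD letters were found in 1 of the 9 windows, the SOX letters in 2, both of *Spp1*, the TATA letters in 2 (*Muc1* and *Spp1*), and the RBPJ letters in 0. These matches are descriptions of letters, and no binding was measured.

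In WT livers, *Spp1* was by far the most abundant of the 9 genes when counts were divided by transcript length. It had 57.9 ± 14.5 TPM (counts per transcript length, scaled to a common total, mean ± SD, n = 3), and its lowest WT library, at 47.1 TPM, lay above every WT value of the other 8 genes. *Krt19* followed with 3.13 ± 0.717 TPM, *Epcam* with 2.92 ± 1.70 TPM, *Prom1* with 2.58 ± 3.61 TPM, and *Sox9* with 1.64 ± 0.423 TPM. The ranges of neighbors in this order overlapped, although the lowest WT library of *Krt19*, at 2.36 TPM, lay above the highest of *Sox9*, at 2.04 TPM. *Krt23* (1.12 ± 0.378 TPM), *Krt7* (0.680 ± 0.150 TPM), and *Muc1* (0.565 ± 0.175 TPM) came next, again with overlapping neighbors. *Cftr* was last with 0.163 ± 0.138 TPM, and its highest WT library, at 0.322 TPM, lay below the lowest of *Muc1*, at 0.441 TPM.

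To see whether deletion of *Mcl1* in hepatocytes went with more biliary RNA, Mcl1 KO livers were compared with WT livers. *Krt23* rose, with a log2 fold change of 2.68 (SE 0.78, adjusted p = 0.033), and so did *Muc1*, with 1.47 (SE 0.36, adjusted p = 0.018). The other 6 tested genes did not pass the threshold, among them *Krt7*, *Krt19*, *Epcam*, and *Sox9*, the genes most used to recognize cholangiocytes. Thus 2 of 8 genes were called, both higher, where 20.2% of all 15070 tested genes were called and 10.8% were called higher, so the share was near the background. *Krt23*, *Muc1*, and *Prom1* did not overlap between the groups, 3 of 8 genes, beside 33.3% of all tested genes, and the same 3 had an unadjusted p under 0.05, beside 36.9% of all tested genes. The median log2 fold change of the 8 was 0.47, beside −0.0049 over all tested genes, and without Mcl1 KO replicate 3 it was 0.10 over all 9, since *Cftr* then passed the filter. In that fit 1 of the 9 was called, *Krt23*, beside 16.7% of all genes.

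*Krt23* (ENSMUSG00000006777, GRCm39 chromosome 11, 99366873 to 99383963) encodes an acidic keratin that stressed hepatocytes and ductular cells can express. It was at 1.35, 0.712, and 1.19 CPM in the WT livers and at 13.8, 4.56, and 3.29 CPM in the Mcl1 KO livers. All Mcl1 KO values lay above all WT values, and replicate 1 was the highest of the 12 libraries. Without Mcl1 KO replicate 3 the log2 fold change was 3.03 (adjusted p = 0.028), and with Y-linked expression as a covariate it was 3.21 (adjusted p = 0.038). Without Mcl1 KO replicate 1 it was 1.80 and no longer past the threshold (adjusted p = 0.092). Leaving out any single WT library, or Mcl1 KO replicate 2, also ended the call, with an adjusted p between 0.058 and 0.115. With the small structured RNA share, that is, the counts on genes such as those of small nuclear, nucleolar, and ribosomal RNAs, as a covariate, it was 3.27 (adjusted p = 0.076). That share was 0.172 to 0.369% of the counts in WT livers and 0.283, 2.37, and 1.36% in Mcl1 KO livers. The fit with this covariate called 3.25% of all genes.

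*Muc1* (ENSMUSG00000042784, chromosome 3, 89136354 to 89140688) encodes a transmembrane mucin of the apical surface of duct epithelia. It was at 0.475, 0.297, and 0.330 CPM in the WT livers and at 0.786, 1.01, and 1.58 CPM in the Mcl1 KO livers, from 10 to 18 and from 33 to 50 counts. The groups did not overlap, and the highest value was that of replicate 3, the library with acinar RNA. Without that library the remaining Mcl1 KO livers still lay above all WT livers, but the log2 fold change was 1.16 and missed the threshold (adjusted p = 0.055). With Y-linked expression as a covariate it was 1.18 (adjusted p = 0.113), and with the small structured RNA share 1.31 (adjusted p = 0.170). Those fits called 10.2% and 3.25% of all genes.

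*Prom1* (ENSMUSG00000029086, chromosome 5, 44150962 to 44259395) encodes prominin 1, also known as CD133, a membrane protein of ductular and progenitor cells. It was at 13.8, 0.949, and 1.29 CPM in the WT livers and at 56.7, 45.9, and 17.2 CPM in the Mcl1 KO livers. The groups did not overlap, although WT replicate 1 came close to Mcl1 KO replicate 3. The log2 fold change of 2.88 had an SE of 1.04 and did not pass the test (adjusted p = 0.068), and DESeq2, which called 23.0% of the genes it tested, gave 2.91 (adjusted p = 0.040). Without WT replicate 1 it was 5.09 (adjusted p = 0.012), and without Mcl1 KO replicate 3 it was 3.24 (adjusted p = 0.067).

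The spread of *Prom1* within genotypes ran with Y-linked expression. The 3 libraries that expressed Y-linked genes had 0.949 to 4.08 CPM of *Prom1*, and the 9 others had 5.67 to 56.7 CPM, and within the WT and the Mcl1 Sting1 DKO labels, which held both kinds, the sets were apart as well. *Prom1* was the only one of the 9 genes whose values did not overlap between these sets of libraries. The share of all tested genes that did not overlap between these sets was not counted. With Y-linked expression as a covariate, its log2 fold change between Mcl1 KO and WT livers was 1.73 (SE 0.68, adjusted p = 0.120). No Mcl1 KO library expressed Y-linked genes, so between Mcl1 KO and WT livers genotype and Y-linked expression are partly confounded, and WT replicate 1 is the only WT library to set beside them.

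**Figure D2:**
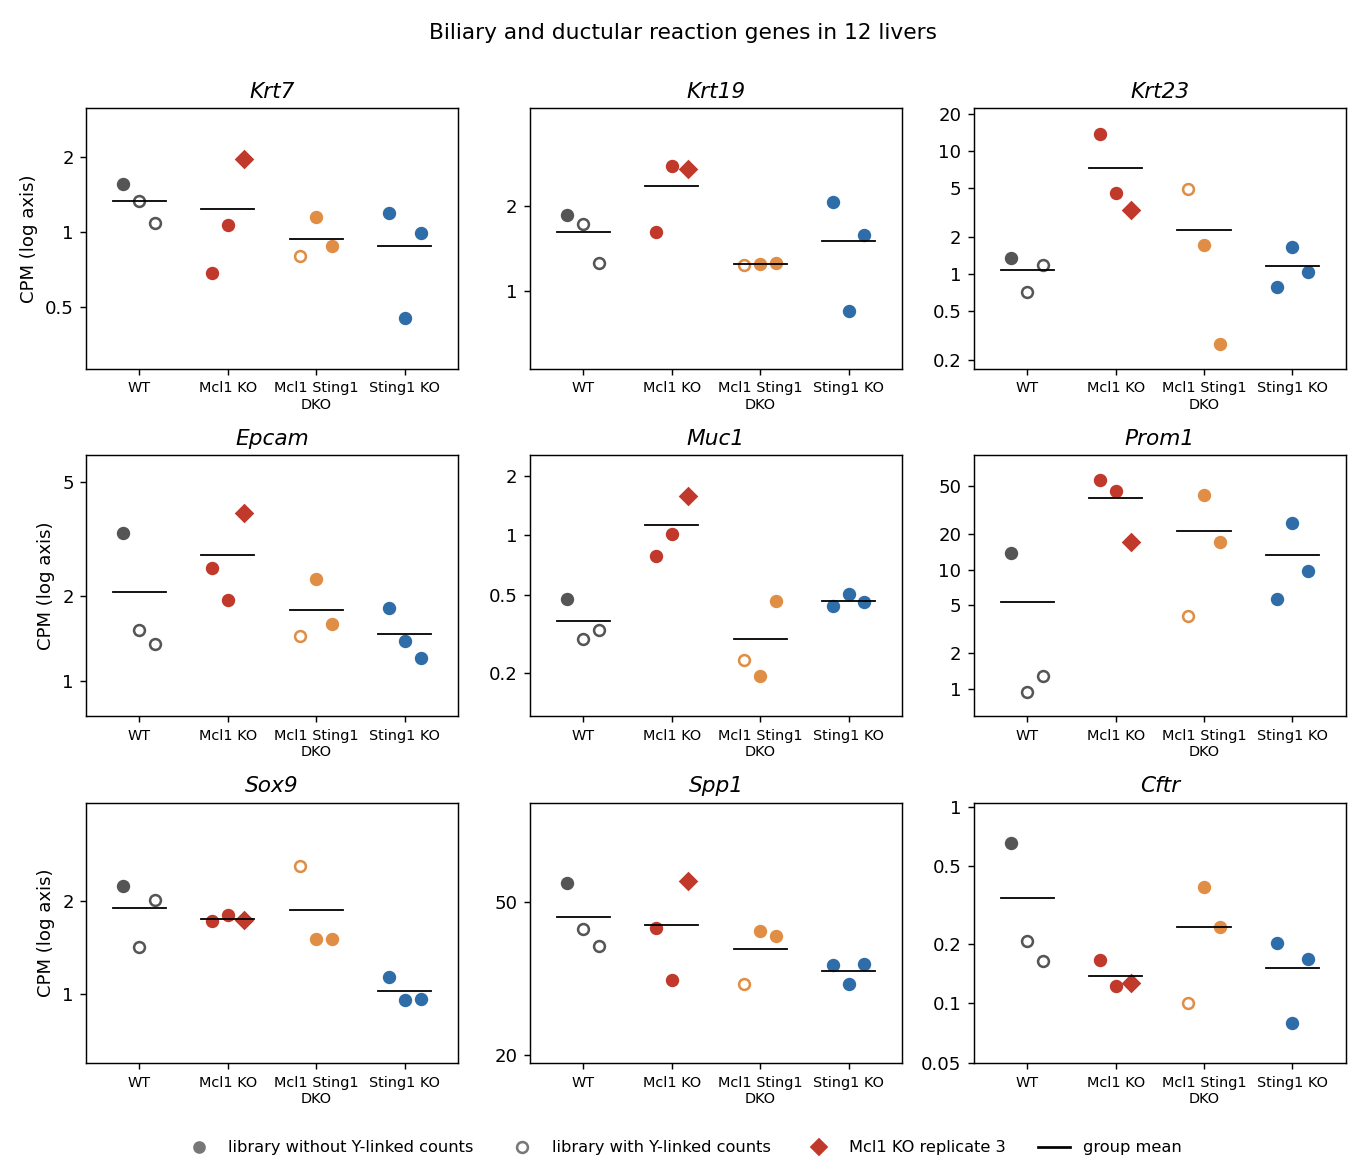
CPM (log axis) of the 9 genes in the 12 libraries, with 1 point per liver and a line at the group mean. Open circles mark libraries with Y-linked counts, and the diamond marks Mcl1 KO replicate 3. *Krt23*, *Muc1*, and *Prom1* lie higher in the 3 Mcl1 KO livers than in the 3 WT livers, and the open circles of *Prom1*, at 0.949 to 4.08 CPM, lie below all filled points.

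*Krt19* and *Krt7*, whose keratins form the filaments of cholangiocytes with KRT8 and KRT18, did not separate the genotypes. *Krt19* (ENSMUSG00000020911, chromosome 11, 100031636 to 100039491) was at 1.85, 1.72, and 1.25 CPM in WT livers and at 1.61, 2.75, and 2.69 CPM in Mcl1 KO livers. The first Mcl1 KO liver lay within the WT range, and the log2 fold change was 0.53 (SE 0.32, adjusted p = 0.249), and 0.42 (adjusted p = 0.445) without Mcl1 KO replicate 3. *Krt7* (ENSMUSG00000023039, chromosome 15, 101308924 to 101328194) was at 1.56, 1.33, and 1.09 CPM in WT livers and at 0.683, 1.07, and 1.96 CPM in Mcl1 KO livers. Its Mcl1 KO livers were both the lowest and the highest of the 6, with replicate 3 on top, and the log2 fold change went from −0.11 (SE 0.40) to −0.58 (SE 0.39, adjusted p = 0.324) without replicate 3.

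*Epcam* (ENSMUSG00000045394, chromosome 17, 87943407 to 87958557) encodes an epithelial adhesion molecule that cholangiocytes carry and adult hepatocytes largely lack. It was at 3.32, 1.51, and 1.35 CPM in WT livers and at 2.50, 1.93, and 3.89 CPM in Mcl1 KO livers. The groups overlapped through WT replicate 1, the WT library without Y-linked counts. The log2 fold change of 0.41 (SE 0.37, adjusted p = 0.444) became 0.10 without Mcl1 KO replicate 3 and −0.033 with Y-linked expression as a covariate.

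*Sox9* (ENSMUSG00000000567, chromosome 11, 112673009 to 112678586) encodes the transcription factor that marks biliary cells and periportal hybrid hepatocytes. Its values of 2.24, 1.42, and 2.01 CPM in WT livers enclosed those of 1.72, 1.81, and 1.74 CPM in Mcl1 KO livers. The log2 fold change was −0.11 (SE 0.26, adjusted p = 0.795) and −0.10 (adjusted p = 0.842) without Mcl1 KO replicate 3. Of the 8 tested genes *Sox9* had the narrowest range among Mcl1 KO livers.

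*Spp1* (ENSMUSG00000029304, chromosome 5, 104582165 to 104589235) encodes osteopontin, which biliary cells, macrophages, and activated stellate cells secrete. It was at 55.7, 42.4, and 38.4 CPM in WT livers and at 42.6, 31.2, and 56.5 CPM in Mcl1 KO livers, with full overlap. The log2 fold change was −0.067 (SE 0.21, adjusted p = 0.847) and −0.30 (SE 0.21, adjusted p = 0.335) without Mcl1 KO replicate 3. Over the same livers, markers of 2 other sources of osteopontin rose, with 5 of 8 macrophage markers and 5 of 7 stellate cell and fibroblast markers called higher, beside the 10.8% of all tested genes. The medians of these lists were 0.92 and 1.59, and without Mcl1 KO replicate 3 they were 0.997 and 0.876, with 4 of 8 and 4 of 7 called higher. The summed stellate and fibroblast markers went from 296 to 483 CPM in WT livers to 741 to 804 CPM in Mcl1 KO livers, and their part in the *Spp1* level was not tested. An unannotated transcript on the same strand shares 362 exon bases with *Spp1*, and it had at most 104 counts per library.

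*Cftr* (ENSMUSG00000041301, chromosome 6, 18170686 to 18322767), the apical chloride channel that drives bile secretion by cholangiocytes, had 25, 7, and 5 counts in the WT livers and 8, 4, and 4 in the Mcl1 KO livers. WT replicate 1 was its highest library at 0.660 CPM, and the other WT livers lay at 0.208 and 0.165 CPM. Its 3 Mcl1 KO livers lay at 0.166, 0.122, and 0.126 CPM, of which the first was close to the lowest WT liver and the others were below all WT livers. When all genes with at least 1 count were tested, the log2 fold change was −1.06 (SE 0.54, adjusted p = 0.242), and without Mcl1 KO replicate 3 it was −1.01 (SE 0.60, adjusted p = 0.268). Neither of these fits called *Cftr*. In the fit without Mcl1 KO replicate 3 and with Y-linked expression as a covariate, which was added after the data were seen, it was −1.77 (SE 0.48, adjusted p = 0.039). That fit called 11.4% of all genes, *Cftr* among them. In it WT replicate 1, with 25 counts of *Cftr*, was the only WT library without Y-linked counts.

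**Figure D3:**
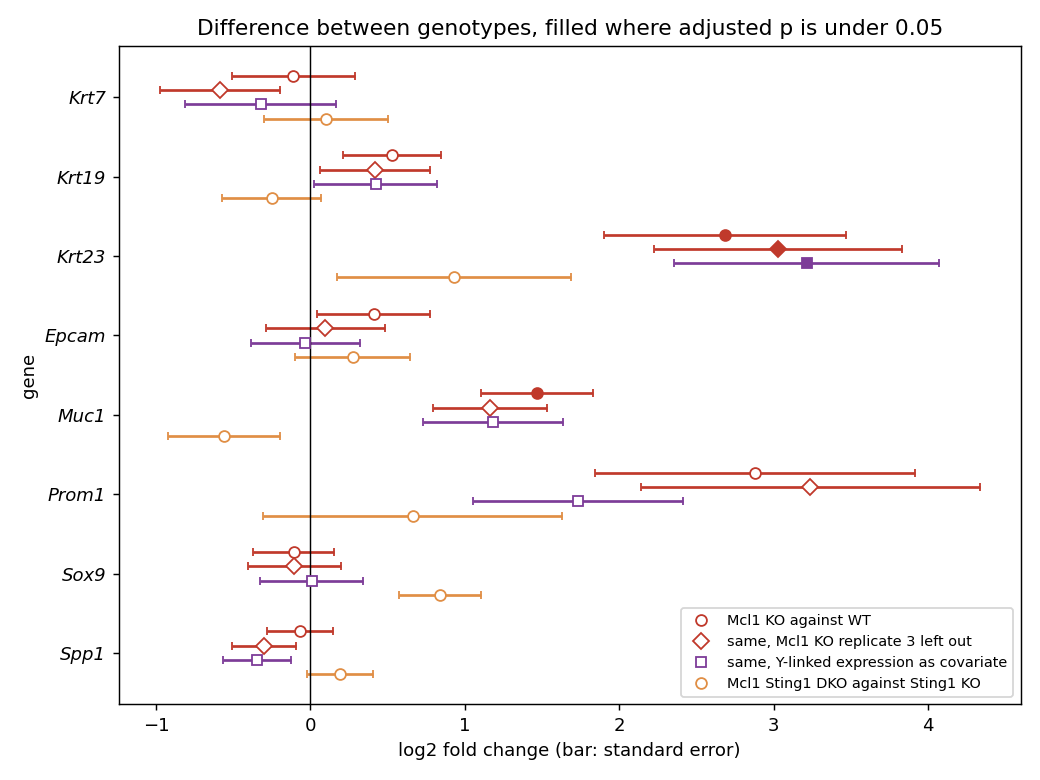
Log2 fold change with SE of the 8 tested genes between Mcl1 KO and WT livers with all libraries (red circles), without Mcl1 KO replicate 3 (red diamonds), and with Y-linked expression as a covariate (purple squares), and between libraries labelled Mcl1 Sting1 DKO and Sting1 KO (orange circles). Filled symbols have an adjusted p under 0.05. *Krt23* is filled at 2.68, 3.03, and 3.21, whereas *Muc1* is filled only at 1.47, with all libraries and no covariate, and no orange symbol is filled.

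To ask what deletion of *Mcl1* went with on the other *Sting1* background, the libraries labelled Mcl1 Sting1 DKO were compared with those labelled Sting1 KO. None of the 8 genes was called by edgeR, where 0.803% of all tested genes were called, 1 gene (*Sox9*) had an unadjusted p under 0.05, as 11.3% of all tested genes did, and DESeq2 called 0, where it called 2.71% of all genes. *Krt23* was at 4.88, 1.73, and 0.274 CPM in the libraries labelled Mcl1 Sting1 DKO and at 0.786, 1.67, and 1.04 CPM in those labelled Sting1 KO. The first of these libraries alone was high, the third was the lowest of all 12, and the log2 fold change was 0.93 (SE 0.76, adjusted p = 0.745). *Muc1* was at 0.234, 0.195, and 0.465 CPM against 0.436, 0.504, and 0.458 CPM, a log2 fold change of −0.56 (SE 0.36, adjusted p = 0.643).

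*Sox9* was the only gene of the 9 whose libraries did not overlap in that comparison. It was at 2.61, 1.51, and 1.505 CPM in the libraries labelled Mcl1 Sting1 DKO and at 1.13, 0.955, and 0.965 CPM in those labelled Sting1 KO. The log2 fold change was 0.84 (SE 0.27, adjusted p = 0.211), and 22.3% of all tested genes did not overlap between these groups. The same low Sting1 KO values lay below all WT values, with a log2 fold change of −0.86 (SE 0.27, adjusted p = 0.702). In the comparison of libraries labelled Sting1 KO with WT, *Spp1* was the other gene without overlap, which held for 12.5% of all tested genes, at 34.3, 30.5, and 34.5 CPM against 38.4 CPM or more, with a log2 fold change of −0.46 (SE 0.21, adjusted p = 0.919). No member was called there by edgeR or DESeq2, 1 (*Sox9*) had an unadjusted p under 0.05, and edgeR called 0.0% of all tested genes, with 821 genes (5.45%) at an unadjusted p under 0.05 and 52 (0.32%) called by DESeq2.

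The libraries labelled Mcl1 Sting1 DKO were also compared with Mcl1 KO livers. *Muc1* was lower in all 3 of them than in all Mcl1 KO livers, with a log2 fold change of −1.73 (SE 0.37, adjusted p = 0.131), and DESeq2 called it at −1.91 (adjusted p = 0.011). *Krt19*, at 1.24, 1.24, and 1.26 CPM, also lay below all Mcl1 KO livers, with −0.88 (SE 0.32, adjusted p = 0.172). *Krt23*, which overlapped, had −1.65 (SE 0.75, adjusted p = 0.238). Of the 8 genes, edgeR called 0, with 3 at an unadjusted p under 0.05, and DESeq2 called 1. Over all tested genes edgeR called 0.0%, with 3098 (20.6%) at an unadjusted p under 0.05, and DESeq2 called 663 (4.61%), while 18.2% did not overlap between the groups. Without Mcl1 KO replicate 1, edgeR called *Muc1* (−1.92, adjusted p = 0.0077) and *Krt19* (−1.09, adjusted p = 0.038), where it called 20.2% of all tested genes. Without Mcl1 KO replicate 3, none of the 9 genes was called, and *Muc1* had −1.43 (adjusted p = 0.148), *Krt19* −0.77 (adjusted p = 0.302), and *Krt23* −1.997 (adjusted p = 0.243). The median log2 fold change was −0.75 over 8 genes, 1 of them positive, with all libraries, and −0.31 over 9 genes, 4 of them positive, without that library.

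Whether the difference that came with *Mcl1* deletion itself differed between the *Sting1* backgrounds was tested as an interaction. No member was called by edgeR or DESeq2, with *Muc1* and *Sox9* at an unadjusted p under 0.05. *Muc1* had −2.03 (SE 0.52, adjusted p = 0.252) on the log2 scale, *Krt23* −1.75 (SE 1.08, adjusted p = 0.463), and *Sox9* 0.95 (SE 0.37, adjusted p = 0.310). Without Mcl1 KO replicate 3 these values were −1.73, −2.10, and 0.94, with adjusted p of 0.249, 0.433, and 0.359, and the median over the genes went from −0.46 to 0.18. Over all tested genes edgeR called 0.0%, with 2165 (14.4%) at an unadjusted p under 0.05, and DESeq2 called 169 (1.17%). These comparisons share libraries with each other, so their values for a gene are not independent. The call of *Krt23* or *Muc1* in Mcl1 KO livers and its absence on the other background is therefore not shown to be a difference between backgrounds.

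The wider biliary program was described with 6 lists of 52 other genes, of which 46 were tested. Between Mcl1 KO and WT livers, 11 of the 46 were called, 9 higher and 2 lower, beside the 20.2% of all tested genes. The medians of 5 of the lists lay between −0.21 and 0.35. The remaining list was that of other keratins (*Krt8*, *Krt18*, *Krt20*, and *Krt80*), with 2 of 3 tested genes called higher and a median log2 fold change of 1.33.

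*Krt8* and *Krt18*, the keratins that both hepatocytes and cholangiocytes make, rose. *Krt8* went from 212, 198, and 237 CPM in WT livers to 430, 814, and 387 CPM in Mcl1 KO livers, a log2 fold change of 1.33 (SE 0.34, adjusted p = 0.021). *Krt18* had 1.39 (SE 0.37, adjusted p = 0.023), and without Mcl1 KO replicate 3 both values were larger, at 1.53 and 1.63. Hence the keratins shared with hepatocytes were called, while the cholangiocyte keratins *Krt7* and *Krt19* were not, although the difference between these genes was not tested. When the small structured RNA share entered the fit as a covariate, neither *Krt8* (0.84, adjusted p = 0.280) nor *Krt18* (1.08, adjusted p = 0.228) was past the threshold. That fit called 3.25% of all genes.

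Among 6 biliary transcription factor genes, *Onecut1*, which encodes hepatocyte nuclear factor 6 and takes part in duct formation, fell by 2.31 on the log2 scale (SE 0.42, adjusted p = 0.0048). It was at 65.6, 75.4, and 59.2 CPM in WT livers and at 23.6, 7.22, and 9.20 CPM in Mcl1 KO livers. The libraries labelled Sting1 KO, at 19.8, 13.7, and 19.7 CPM, also lay below all WT livers, although edgeR did not call that difference (log2 fold change −1.91, SE 0.41, adjusted p = 0.575), and DESeq2 did. A noncoding RNA shares 2171 exon bases with *Onecut1* on the same strand. It was at 5.45 to 49.1 CPM, and its part in the *Onecut1* values was not tested. *Elf3*, an epithelial factor, rose by a log2 fold change of 1.35 (SE 0.42, adjusted p = 0.042), and missed the threshold without Mcl1 KO replicate 3 (1.30, adjusted p = 0.083).

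In the list of 9 transport and cilium genes, 1 of 7 tested was called, beside 20.2% of all tested genes. *Slc10a2*, the apical bile acid transporter of cholangiocytes and ileum, went from 17.5, 24.0, and 29.1 CPM to 34.2, 90.4, and 58.3 CPM, a log2 fold change of 1.37 (SE 0.29, adjusted p = 0.0093). Its libraries labelled Mcl1 Sting1 DKO, at 50.1 to 53.2 CPM, lay above those labelled Sting1 KO, at 18.7 to 24.1 CPM, with 1.28 (SE 0.29, adjusted p = 0.073) by edgeR and a call by DESeq2. The secretin receptor gene *Sctr*, which cholangiocytes alone express in liver, was too low to test.

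Of 13 surface and junction genes, 12 were tested and 2 were called, both higher, beside 20.2% of all tested genes called. *Tspan8*, a tetraspanin of epithelia, went from 1.13, 0.623, and 0.627 CPM to 2.75, 3.33, and 2.78 CPM, a log2 fold change of 1.82 (SE 0.29, adjusted p = 0.0029). *Dmbt1*, a secreted scavenger glycoprotein of mucosae, pancreas, and ductular reactions, had 0 counts in all 3 WT livers and 18.4, 29.6, and 243 CPM in Mcl1 KO livers. Taken over a floor of 3 counts in the WT group, it was at least 2875-fold higher, and at least 779-fold higher without replicate 3, whose value was the outlying one (adjusted p = 0.0036 and 0.0032). In the libraries labelled Mcl1 Sting1 DKO and Sting1 KO it was at most 0.755 CPM. *Cldn7* and *Cd24a*, further duct epithelial genes of this list, were not called.

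Notch signaling directs biliary fate, and 1 of its 12 genes was called, beside 20.2% of all tested genes. *Jag2*, which encodes a Notch ligand, went from 0.132, 0.0297, and 0.0660 CPM to 0.828, 0.551, and 0.632 CPM (log2 fold change 2.46, SE 0.40, adjusted p = 0.0031). *Jag1*, the ligand whose loss causes bile duct paucity, lay at 6.90 to 8.50 CPM in WT livers and at 5.29 to 11.4 CPM in Mcl1 KO livers. The target gene *Hes1* overlapped as well, at 5.99 to 16.6 CPM and 9.76 to 11.7 CPM.

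Signals that induce ductular reactions were represented by 8 genes, of which 6 were tested, 2 rose, and 1 fell. Of all tested genes, 20.2% were called. *Tnfrsf12a* encodes Fn14, the receptor of the cytokine TWEAK, which makes ductular cells multiply. It went from 3.88, 3.71, and 4.06 CPM in WT livers to 30.3, 49.2, and 20.7 CPM in Mcl1 KO livers, a log2 fold change of 3.09 (SE 0.43, adjusted p = 0.0017). *Tnfsf12*, which encodes TWEAK itself, was at 6.52 to 8.22 CPM and 6.73 to 8.13 CPM and was not called. The gene *Hcfc1r1* on the opposite strand shares 1965 exon bases with *Tnfrsf12a*, and its own log2 fold change was 0.16 (adjusted p = 0.421). *Osmr*, the oncostatin M receptor gene, rose by a log2 fold change of 0.88 (SE 0.25, adjusted p = 0.030), and *Met*, the receptor gene of hepatocyte growth factor, fell by 1.09 on the log2 scale (SE 0.23, adjusted p = 0.0090).

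Without Mcl1 KO replicate 3, *Elf3* alone of the 11 called genes of these lists lost its call. *Onecut1* then had −2.10 (adjusted p = 0.014), *Slc10a2* 1.402 (adjusted p = 0.017), *Tspan8* 1.86 (adjusted p = 0.0050), *Jag2* 2.50 (adjusted p = 0.0056), *Tnfrsf12a* 3.34 (adjusted p = 0.0018), *Osmr* 1.07 (adjusted p = 0.014), and *Met* −1.01 (adjusted p = 0.026). With the small structured RNA share as a covariate, *Onecut1* (−1.67, adjusted p = 0.059), *Elf3* (1.13, adjusted p = 0.297), *Slc10a2* (0.52, adjusted p = 0.163), *Osmr* (0.97, adjusted p = 0.130), and *Met* (−0.68, adjusted p = 0.135), like *Krt8* and *Krt18*, were not past the threshold. That fit called 3.25% of all genes. Of 20 alternatives, *Osmr* was called in 13, *Elf3* in 7, *Met* in 18, and *Slc10a2* and *Onecut1* in 19 each, whereas *Tspan8*, *Dmbt1*, *Jag2*, and *Tnfrsf12a* were called in all 20.

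In the other comparisons edgeR called 0 of the 46 genes. Between libraries labelled Mcl1 Sting1 DKO and Sting1 KO, 6 had an unadjusted p under 0.05, beside 11.3% of all tested genes, and DESeq2 called 2, *Slc10a2* and *Tnfrsf12a*, beside 2.71%. Between libraries labelled Mcl1 Sting1 DKO and Mcl1 KO livers, 14 had an unadjusted p under 0.05, beside 20.6%, and DESeq2 called 5, beside 4.61%. *Tnfrsf12a* stood between both groups there, at 19.4, 8.85, and 9.36 CPM. Between libraries labelled Sting1 KO and WT, 2 had an unadjusted p under 0.05, beside 5.45%, and DESeq2 called *Onecut1*, beside 0.32%. For the interaction, 8 had an unadjusted p under 0.05, beside 14.4%, and DESeq2 called 2, beside 1.17%.

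**Figure D4:**
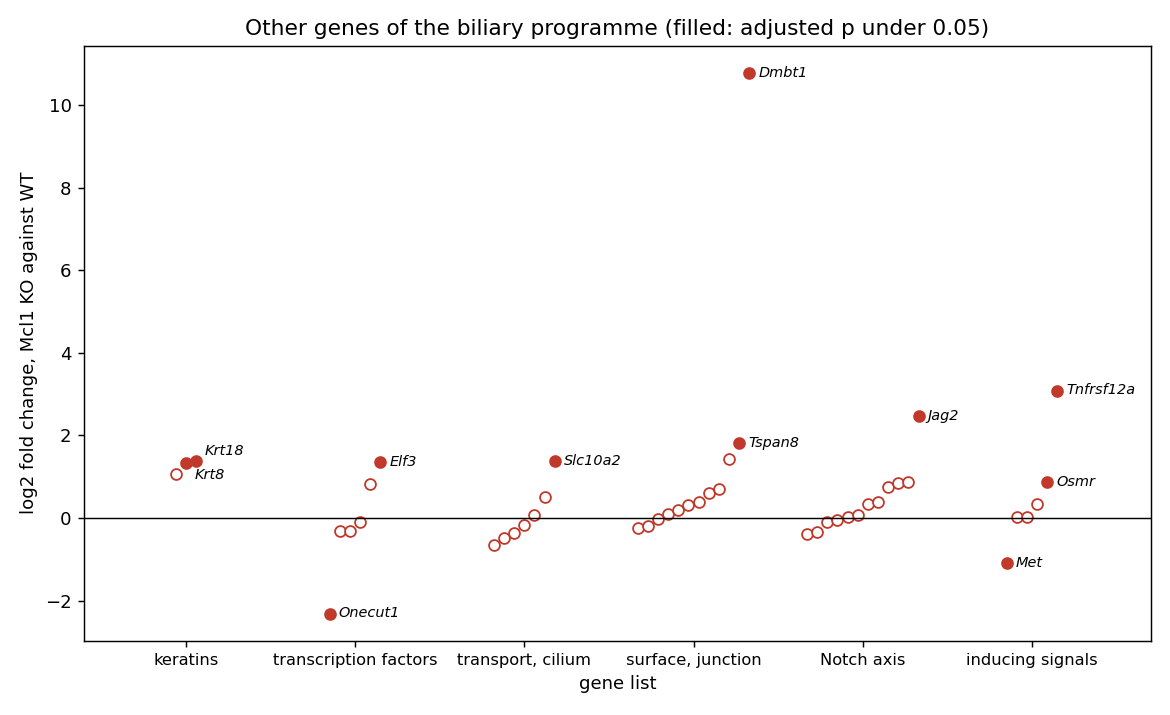
Log2 fold change between Mcl1 KO and WT livers of the 46 tested genes in 6 lists of the biliary program, with 1 point per gene. Filled and named points have an adjusted p under 0.05. They are 11 in number, from −2.31 (*Onecut1*) to 10.78 (*Dmbt1*), and most open points lie near 0.

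The 8 tested genes did not share 1 profile over the 12 libraries. With log2 CPM standardized per gene, *Epcam* and *Spp1* were the closest pair, with a mean absolute difference of 0.530 SD over the libraries, followed by *Krt7* and *Krt19* with 0.565 SD. The farthest pair was *Krt7* and *Krt23*, with 1.27 SD. From the mean profile of the 4 cholangiocyte genes *Krt7*, *Krt19*, *Epcam*, and *Sox9*, the distance was 0.579 SD for *Spp1*, 0.857 SD for *Muc1*, 0.964 SD for *Krt23*, and 1.16 SD for *Prom1*, where the median over 12559 genes was 1.12 SD. Of the 8 tested genes, the 3 that did not overlap between Mcl1 KO and WT livers were also those farthest from this mean, to which the 4 genes themselves contribute. The nearest of all other genes was *Gsn*, which encodes the actin regulator gelsolin, at 0.386 SD, and it was followed by *Agpat4*, *Rpp38*, *Ltbp3*, *Rragd*, *Ogn*, *Aebp1*, and *Fbln5*, the last at 0.428 SD. All 12 libraries entered each distance, Mcl1 KO replicate 3 included.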

How the data were processed

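Total RNA of 12 livers was sequenced (Illumina NovaSeq). The authors deposited unnormalized counts, that is, how many reads fell on each Ensembl gene in each library. The submitters' processing notes name STAR, featureCounts, and GRCm39. Versions, annotation, and the use of strand are not given in the sources used here, so reads from overlapping genes may be shared between them. The RNA kit in the labels is not the one in the paper.

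Groups and replicate numbers came from the labels, which do not say whether the 3 livers of a group are separate litters. The 9 genes and the other lists were chosen with earlier results of these data known. Counts were tested with the quasi-likelihood test of edgeR 4.0.16 in R 4.3.3 (TMM factors, filterByExpr by genotype, prior count of 2) over all 12 libraries without covariates, with Benjamini-Hochberg adjustment over 15070 genes and a threshold of 0.05. SE is the log2 fold change divided by the root of F. DESeq2 1.42.0 was an alternative. Other alternatives changed the scaling factors, the filter, the covariates, or the libraries left out, or added a replicate block. A motif that was also searched in the promoters is not reported here. TPM and positions used GENCODE vM39, which holds 39533 of the 40551 identifiers. Named genes were all 9, up to 3 called genes per list with the lowest adjusted p between Mcl1 KO and WT livers, the 8 nearest profiles, *Mcl1*, and *Sting1*, and other genes were named after their values were seen. In simulated data, 200 genes were changed by a log2 fold change of 2 between Mcl1 KO and WT. There edgeR recovered 199 with 5 false calls among 15076 genes, and DESeq2 recovered 194 with 24 among 16834. Recovery at the spread of *Prom1* and *Krt23*, or at the low counts of *Cftr*, was not tested. Within genotypes, chi-square per degree of freedom between libraries was 40.1 to 290.3, well above sampling noise. The precision of gene values is limited by 3 livers per group and, for *Muc1* and *Cftr*, by counts. Tables and figures were made in Python 3.11.15 with pandas 2.3.3, numpy 2.4.6, and matplotlib 3.10.9.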

Additional observations from a re-analysis of the deposited data

Results flagged for a closer look

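A signal outside the liver genes was seen in 1 library. In Mcl1 KO replicate 3, 0.913% of the counts fell on 6 pancreatic acinar genes, whereas the WT control livers had 0.00136 to 0.00305%. The same library had 0.124% of its counts on 6 skeletal muscle genes, against at most 0.000618% in the other 11. *Ggt1*, a transport gene too low to test, was at 3.35 CPM in this library and at most at 0.193 CPM in the other 11. Groups of 3 livers were not tested for single outlying values.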

How the results depend on the processing

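Of the 9 genes, 2 were called between Mcl1 KO and WT livers. With Y-linked expression as a covariate 1 was called, when 10.2% of all genes were called. With the share of small structured RNAs 0 were called, when 3.25% of all genes were called. *Cftr* was called in the fit added later, with the Y-linked covariate and without Mcl1 KO replicate 3, when 11.4% of all genes were called. Leaving out 1 library gave 0 to 2, with 0 without WT replicate 2 or WT replicate 3 and 1 without any of the Mcl1 KO libraries. Over all genes, 17.4% were called without WT replicate 1, 34.1% without Mcl1 KO replicate 1, and 16.7% without Mcl1 KO replicate 3. For the other fits of this comparison that leave out 1 library, and for the replicate block, this share was not counted. Between libraries labelled Mcl1 Sting1 DKO and Mcl1 KO livers 0 were called, 1 with DESeq2, and 0 to 2 when 1 library was left out. The 2 calls came without Mcl1 KO replicate 1, when 20.2% of all genes were called. For the interaction 0 were called, and 0 to 1 (*Muc1*, −2.22, adjusted p = 0.027, without Mcl1 KO replicate 1) when 1 library was left out. The interaction fit without Mcl1 KO replicate 1 called 10.2% of all genes. In the other comparisons none was called under any alternative. The cause of these differences was not tested.
Changes of sign were seen only in values that did not pass the threshold. Between Mcl1 KO and WT livers, the log2 fold change of *Epcam* turned to −0.033 and that of *Sox9* to 0.0080 with Y-linked expression as a covariate, and that of *Spp1* to 0.17 with the small RNA share. With Mcl1 KO replicate 3 left out and this Y-linked covariate, a fit added after seeing the data, *Epcam* was −0.35 and *Sox9* 0.013 in that comparison, and against Mcl1 KO livers the libraries labelled Mcl1 Sting1 DKO had 0.21 for *Krt7*, −0.00018 for *Sox9*, and 0.17 for *Spp1*. In the interaction, *Epcam* was 0.56 with the Y-linked covariate and 0.87 in the added fit, and *Spp1* −0.018 with the small RNA share. Leaving out 1 library gave ranges that include 0. Between Mcl1 KO and WT livers these were −0.58 to 0.18 for *Krt7*, −0.28 to 0.026 for *Sox9*, and −0.30 to 0.12 for *Spp1*. Between libraries labelled Mcl1 Sting1 DKO and Sting1 KO they were −0.20 to 0.36 for *Krt7*, −0.52 to 0.039 for *Krt19*, −0.20 to 1.47 for *Krt23*, and −0.32 to 1.45 for *Prom1*. Against Mcl1 KO livers they were −0.65 to 0.11 for *Krt7*, −0.21 to 0.22 for *Sox9*, and −0.39 to 0.033 for *Spp1*. Between libraries labelled Sting1 KO and WT they were −0.39 to 0.17 for *Krt19*, −0.23 to 0.31 for *Krt23*, and −0.71 to 0.027 for *Epcam*. In the interaction they were −0.083 to 0.69 for *Krt7* and −0.65 to 0.18 for *Epcam*.
The replicate block, with replicate numbers from the titles as a factor, gave 2 called genes between Mcl1 KO and WT livers and 0 in the other comparisons. Of 18 pairs of libraries with the same number, 3 had deviations that correlated above 0.1 (range −0.541 to 0.251). The library labelled Mcl1 Sting1 DKO replicate 1, with Y-linked counts, had −0.541 with WT replicate 1 and 0.441 with WT replicate 2. Of these WT libraries only replicate 2 had Y-linked counts. Because deviations also ran with Y-linked expression, this check cannot decide whether equal numbers pair the libraries.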
